A study of Mus musculus with 28 samples.

Results

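The regions described here are stretches of mouse chromatin that were accessible in quiescent satellite cells and had no peak in the other 25 libraries used to choose them. Accessibility had been measured by ATAC-seq, in which a transposase cuts open chromatin and the cut fragments are sequenced. Peaks of 27 of the 28 lists, each from 1 library, were merged into 255567 regions wherever they overlapped by at least 1 bp, and a library "called" a region in which it had a peak. A region was kept when both quiescent libraries called it and none of the other 25 libraries did, and 1861 regions met this rule. They made up 0.728% of all regions and are termed quiescent-private regions below. Since peak calls in all 27 libraries chose them, the presence of peaks in quiescent cells and their absence elsewhere is a description and not a finding.

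Satellite cells are the stem cells of skeletal muscle. They rest beneath the basal lamina of the muscle fibre, express the transcription factor Pax7, and stay out of the cell cycle until injury. On activation they enter the cycle, express the myogenic factor MyoD and give rise to myoblasts, and the resting state is known to be lost quickly once the cells leave their fibre. Regulatory elements that are open in the resting state alone are therefore of interest for what a cell converted to the muscle lineage in culture has or has not acquired.

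The quiescent and the activated satellite cells had 2 libraries each, and per the labels' protocols primary satellite cells came from adult Pax7-nGFP mice of 10 to 12 weeks. How and for how long the activated cells were activated is not given per sample. The fibroblast-derived cells labelled MEF14 were mouse embryonic fibroblasts from E13.5 embryos with 3 modified alleles, Rosa-rtTA (the doxycycline-dependent activator), Col1a1-tetO-MyoD (the MyoD transgene it drives) and Pax7-nGFP (a nuclear reporter), so the satellite cells and the MEF14 cells share the reporter allele. Dox+FRG cells received doxycycline (2 μg/ml) with 5 μM forskolin, which raises cyclic AMP, 5 μM RepSox, an inhibitor of the TGF-beta receptor kinase, and 3 μM CHIR99021, an inhibitor of GSK3, in medium with basic FGF. The MEF14 groups comprised GFP-labelled Dox+FRG cells of days 8 and 10, untreated fibroblasts of day 0, unlabelled Dox+FRG cells of days 2, 4, 6 and 8, cells on doxycycline without the small molecules (Dox) of days 4 and 8, and day 8 cells on the small molecules without doxycycline (FRG). The letters FRG are taken here to stand for forskolin, RepSox and the GSK3 inhibitor. A further pair of day 6 groups was labelled MEF10, one MyoD+FRG and one MN+FRG. The labels define neither MEF10 nor MN, so what these cells carry is unknown. Each group had 2 libraries, and nothing in the labels says whether these came from separate cultures or animals. The spread behind each p-value is thus that of these libraries, and it may be technical.

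The lists used by the rule held 37301 to 134997 peaks, with 57859 and 37910 in the quiescent cells and 49072 and 61400 in the activated cells. MEF10 MyoD+FRG replicate 2 stood apart, with a median peak width of 722 bp and peaks of up to 202465 bp, and the rule leaves it out. The lists give no read numbers, so depth is unknown, and a region without a listed peak may still have been cut at a level below the authors' threshold. The cell types were not checked against marker genes and no region was assigned to a gene or printed as sequence, because the positions are on the mm9 build and no mm9 genome or annotation was used here.

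Both quiescent libraries together called 36530 regions (14.3% of all), and of these 9468 (3.70%) were called in no activated library and are termed quiescent-only. The 1861 quiescent-private regions were thus 5.09% of the regions called in both quiescent libraries and 19.7% of the quiescent-only regions. In the other direction, 587 regions (0.230%) were called in both activated libraries and in no other library. These activated-private regions, which are 1.32% of the 44379 regions called in both activated libraries, serve below as a counterpart chosen by the same kind of rule. Private regions of the fibroblast-derived groups ranged widely. Both FRG day 8 libraries alone called 22069 regions, or 19.0% of the regions they shared, and both Dox+FRG day 2 libraries alone called 8. The group with most private regions also had the longest lists.

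Calls that no other group had were reproduced unequally between the quiescent libraries. Of the regions that quiescent replicate 2 had and no library outside the quiescent group had, 82.6% were also called in replicate 1. Of those that replicate 1 had, 35.6% were also called in replicate 2, and 3369 private calls of replicate 1 and 392 of replicate 2 were made in that library alone. Private calls made in a single quiescent library were thus mostly those of the longer list. Within the 1861 regions each quiescent library had exactly 1 peak, and the middles of the paired peaks lay 46 bp apart in the median, with quartiles of 22 and 87 bp and a highest value of 600.5 bp. The merged regions were 180 to 1355 bp wide, with a median of 224 bp.

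The other 7607 quiescent-only regions had a peak in at least 1 fibroblast-derived library, and the libraries differed in how many they called. Each share is given with the library's share of all 255567 regions. FRG day 8 cells called 60.3% of the 9468 quiescent-only regions in replicate 1 and 60.1% in replicate 2, against 52.1% and 51.5% of all regions. Day 10 GFP cells called 47.6% and 50.2%, against 23.8% and 25.1% of all regions. For day 8 GFP cells the shares were 33.6% and 29.8%, against 18.2% and 16.9%, and for untreated day 0 fibroblasts 34.8% and 33.3%, against 27.3% and 26.1%. The quiescent-only shares of day 10 GFP cells thus stood further above their shares of all regions than those of FRG cells did. Unlabelled Dox+FRG cells called between 18.1% (day 4 replicate 2, against 19.9% of all regions) and 33.7% (day 8 replicate 1, against 25.9%), and day 8 replicate 2 called 25.6%, against 19.6%. Dox cells called 30.9% and 34.6% at day 4, against 34.5% and 37.6% of all regions, and 40.8% and 48.2% at day 8, against 41.8% and 50.4%. MEF10 MN+FRG cells called 41.4% and 41.3%, against 35.8% and 36.1% of all regions. The Dox shares were thus below those over all regions, and the MN+FRG shares above them. Of the 36530 regions called in both quiescent libraries, FRG cells called 81.1% and 80.9%, day 10 GFP cells 79.2% and 80.3%, and Dox day 8 cells 80.3% and 83.5%, so these 3 groups were close to each other on that wider set. The lists of day 10 GFP cells held 61575 and 64947 peaks and those of unlabelled Dox+FRG cells 46017 to 70877, and the FRG and Dox lists were longer. The part of list length in these shares was not tested.

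**Figure D1:**
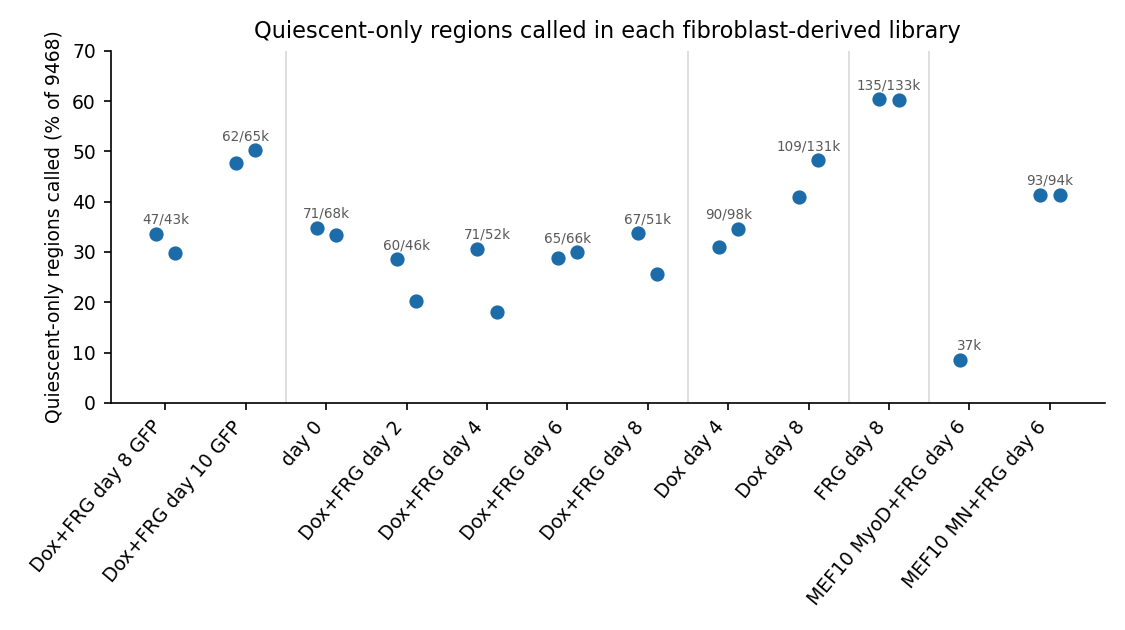
Share of the 9468 quiescent-only regions called in each of the 23 fibroblast-derived libraries used. Each point is 1 library, groups run along the horizontal axis, and the small figures give the length of each group's lists in units of 1000 peaks (k). FRG day 8 cells reach 60.3%, day 10 GFP cells 50.2%, and MEF10 MyoD+FRG replicate 1, the shortest list, 8.43%. The same libraries called 52.1%, 25.1% and 14.4% of all regions.

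The regions just outside the rule show which libraries bounded it. Exactly 1 library outside the quiescent group called 507 further regions, an activated library for 105 of them and a fibroblast-derived library for 402. The single library was activated replicate 2 for 91 regions and activated replicate 1 for 14. Among fibroblast-derived libraries it was day 10 GFP replicate 2 for 93, day 10 GFP replicate 1 for 49, FRG day 8 replicate 1 for 71 and FRG day 8 replicate 2 for 57. Dox day 8 replicate 2 followed with 33, and every remaining library had at most 16. Regions that no other library called at all numbered 3886 in activated replicate 2 and 458 in activated replicate 1. They numbered 1429 and 727 in day 10 GFP replicates 2 and 1, 10823 and 10394 in FRG replicates 1 and 2, and 8537 in Dox day 8 replicate 2. The part of list length in these counts was not tested. Counted by group among the 23 fibroblast-derived libraries, 520 quiescent-only regions were called in FRG day 8 cells and in no other fibroblast-derived group. That was 1.16% of the 44835 regions, with or without satellite cell peaks, that this group alone called among the fibroblast-derived groups. Day 10 GFP cells alone called 267, or 7.85% of 3400. Among fibroblast-derived groups this share was highest in day 10 GFP cells, followed by day 8 GFP cells (2.02%) and FRG cells (1.16%). Over all regions, quiescent-only regions made up 3.70%. All regions include those that several groups called and those that no fibroblast-derived group called. The 3.70% is therefore not a like baseline for regions of 1 group alone. The counts were 81 in Dox day 8 cells (0.446% of 18163), 50 in MEF10 MN+FRG cells (0.589% of 8491), 29 in day 0 fibroblasts (0.577% of 5022) and 18 in day 8 GFP cells (2.02% of 892). Dox day 4 cells and unlabelled Dox+FRG cells of day 8 had 12 each (0.186% of 6461 and 0.875% of 1372), and those of days 2, 4 and 6 had 2, 3 and 2 (0.201% to 0.493% of 435 to 997). MEF10 MyoD+FRG replicate 1 had 0 of 63. These are descriptions, since the same calls bounded the rule.

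Peak width was the 1 property of a peak, besides its position, that the lists gave. In each quiescent list most peaks shared 1 width, 180 bp in replicate 1 and 172 bp in replicate 2, and the others were wider. Of the quiescent-private regions, 109 (5.86%) had such an extended peak in replicate 1 and 49 (2.63%) in replicate 2. The other quiescent-only regions had one in 11.7% and 5.28% of cases, and all regions these libraries called in 10.9% of cases in replicate 1 and 8.57% in replicate 2. In both libraries the quiescent-private regions thus held fewer extended peaks than the other quiescent-only regions. This is a description, since the same libraries chose them. Extended peaks in both libraries at once were present in 32 quiescent-private regions (1.72%), in 2.76% of the 507 regions just outside the rule and in 4.05% of the other quiescent-only regions. At the other end of the range, the 179 quiescent-only regions called in all 23 fibroblast-derived libraries had an extended peak in 14.5% of cases in replicate 1 and 10.6% in replicate 2.

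The library that the rule had not used is described next. MEF10 MyoD+FRG replicate 2 called 59 of the 1861 quiescent-private regions, or 3.17% (exact Clopper-Pearson 95% interval 2.42% to 4.07%, which treats regions as independent and covers counting error only). It called 50.8% of the other quiescent-only regions, 63.4% of the 4161 quiescent-only regions called in both day 10 GFP libraries and 61.2% of the 5462 called in both FRG libraries. Over all regions it called 36.6%, and over the activated-private regions 8.69% (6.54% to 11.3%). The share in the quiescent-private regions was thus below that in each class set beside it, and peaks of up to 5000 bp alone gave 2.85%. The classes of quiescent-only regions set beside them were chosen for having a fibroblast-derived peak, and all regions include those with such a peak. A lower share than in those classes or over all regions is therefore a description and not a finding. Only the activated-private regions were chosen by the same kind of rule. As this was 1 library, no test over replicates was possible, and replicate 1 of the same group was among the libraries that chose the regions.

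**Figure D2:**
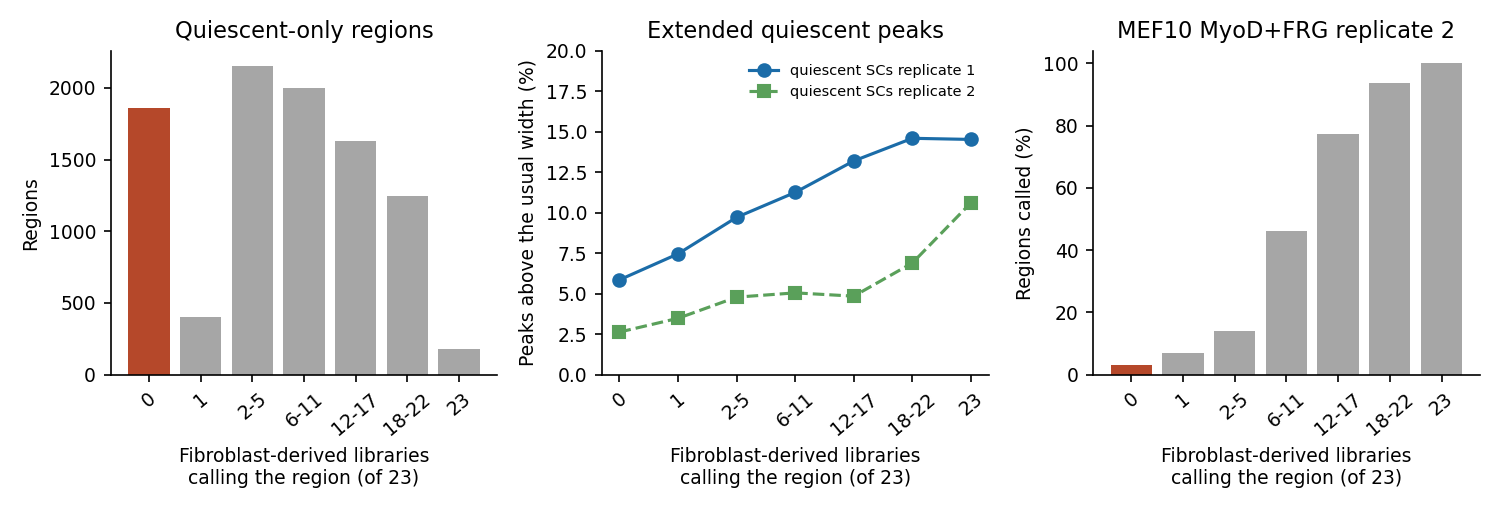
The 9468 quiescent-only regions sorted by how many of 23 fibroblast-derived libraries called them, with the 1861 quiescent-private regions at 0. The left panel counts regions, the middle panel gives the share with a peak above the most common width in each quiescent library, and the right panel gives the share called in MEF10 MyoD+FRG replicate 2, which was 3.17% at 0 libraries and 100.0% at 23.

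The quiescent-private regions were spread over all chromosomes listed. They made up between 0.555% of the regions of chromosome 11 (80 of 14414) and 0.929% of those of chromosome 10 (130 of 13997). Seen as a share of the quiescent-only regions of a chromosome, they ranged between 14.4% on chromosome 19 and 26.7% on chromosome X, where 55 of 206 were private. Chromosome X held 2.96% of the quiescent-private regions, 2.18% of all quiescent-only regions and 2.60% of all regions. The sex of the animals and embryos is not labelled, and its part in the values of chromosome X was not tested.

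Quiescent-private regions lay next to quiescent-only regions about as often as the other quiescent-only regions did, and more often than regions in general. For each region the nearest other region on its chromosome was taken. That neighbour was quiescent-only for 157 quiescent-private regions (8.44%), for 7.78% of the other quiescent-only regions, for 3.24% of the activated-private regions and for 3.60% of all regions. It was itself quiescent-private for 57 of them (3.06%), for 1.47% of the other quiescent-only regions and for 0.748% of all regions. The activated-private regions showed the mirror image, with an activated-only neighbour (both activated libraries, no quiescent one) in 11.2% of cases, against 4.94% for the quiescent-private regions and 5.82% for all regions. The median distance to the nearest region called in all 27 libraries was 55906 bp for the quiescent-private regions, 38160 bp for the quiescent-only regions called in day 10 GFP cells and 55458 bp for all regions outside that class. The same satellite cell calls define both the regions and the classes of neighbours, so these shares are descriptions and not findings. No test of these differences over samples exists, since the positions are the same in every library.

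Few of the regions formed dense groups. Of windows of 100 kb that held any region, 1390 held 1 quiescent-private region, 188 held 2, 25 held 3 and 5 held 4. The 5 fullest windows are given with all calls in them. On chromosome 14 between 80300001 and 80400000, 4 of 10 regions were quiescent-private, and the quiescent libraries called 8 and 6 of the 10. Activated cells called 1 and 2 regions there, and every fibroblast-derived library called 0 or 1. This window was thus almost empty of peaks outside the quiescent cells. Its quiescent-private regions lay at 80318835 to 80319109, 80357641 to 80357867, 80370051 to 80370314 and 80385572 to 80385786, all with peaks of the most common width.

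The window on chromosome 6 from 118200001 to 118300000 had 4 quiescent-private regions and 7 quiescent-only regions among 12. Quiescent cells called 8 in each library there, activated cells 2 in each, and fibroblast-derived libraries 1 to 5. On chromosome 10 from 19700001 to 19800000, 4 of 16 regions were quiescent-private and 8 were quiescent-only. Quiescent cells called 10 and 8 regions in it and activated cells 0 in both libraries. Fibroblast-derived libraries differed in their counts in this window, and also in their shares of all regions, given in brackets. Day 8 GFP cells called 0 in both libraries (18.2% and 16.9%) and day 10 GFP cells 1 and 3 (23.8% and 25.1%). Dox day 8 cells called 4 and 8 (41.8% and 50.4%) and FRG day 8 cells 7 and 6 (52.1% and 51.5%). The quiescent-private regions there were thus interspersed with regions that had peaks in the fibroblast-derived cells. The windows on chromosome 9 from 30300001 to 30400000 and on chromosome 1 from 73800001 to 73900000 held 4 quiescent-private regions among 21 and among 22 regions. FRG day 8 cells called 10 and 10 regions in the first and 12 and 11 in the second, and the quiescent cells 9 and 7 in each window. Over all regions the FRG libraries called 52.1% and 51.5%. Their lists held 134997 and 133267 peaks, against 57859 and 37910 in the quiescent cells. The part of list length in these window counts was not tested.

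**Figure D3:**
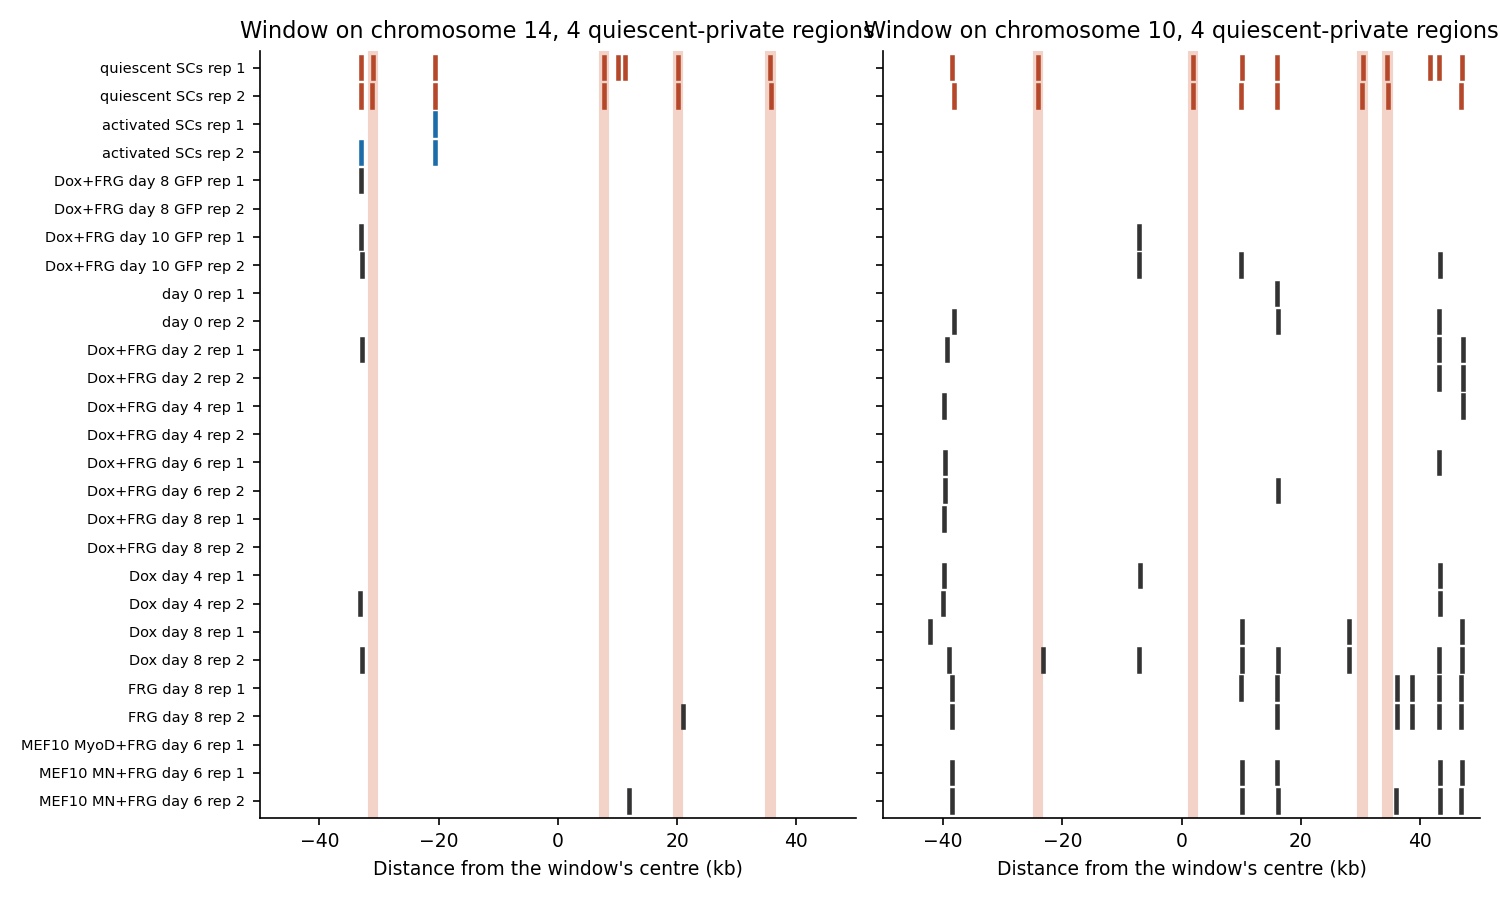
Peaks of each of the 27 libraries in 100 kb windows on chromosomes 14 and 10. Each tick marks the middle of a peak (red quiescent, blue activated, black fibroblast-derived) and is drawn wider than the peak, and the shaded bands mark the 4 quiescent-private regions of each window, drawn wider than the regions, so that a tick inside a band can lie beside the region. On chromosome 14 the fibroblast-derived libraries have 0 or 1 peak, and on chromosome 10 up to 8.

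Unbroken runs of quiescent-private regions, with no other region between them, were short. There were 1765 that stood alone, 45 runs of 2 and 2 runs of 3. The longer runs lay on chromosome 4 from 142339872 to 142348435, a span of 8564 bp, and on chromosome 13 from 50706748 to 50752063, a span of 45316 bp. The first runs of 2 in chromosome order lay on chromosome 1 from 73851846 to 73854043, inside the fifth window above, and on chromosome 2 from 74840755 to 74850452 and from 127232125 to 127244137.

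The 10 quiescent-private regions with the widest peaks in both quiescent libraries were between 980 and 1260 bp in the narrower of the paired peaks, and none was called in MEF10 MyoD+FRG replicate 2. The widest lay on chromosome 17 from 50158548 to 50159852, with peaks of 1270 bp in quiescent replicate 1 and 1260 bp in replicate 2. A peak of activated replicate 2 began only 17 bp from it, so that this region passed the rule by a small margin, while the nearest GFP-labelled peak was 16758 bp and the nearest day 0 peak 12279 bp away. The region on chromosome 14 from 61635958 to 61637242 had peaks of 1285 and 1230 bp. It was 4088 bp from the nearest peak of the other 25 libraries used by the rule. The region on chromosome 8 from 80865142 to 80866377 had peaks of 1209 and 1229 bp, with the nearest activated peak 77695 bp, the nearest GFP-labelled peak 77694 bp and the nearest FRG peak 3739 bp away. On chromosome X, the region from 154195930 to 154197127 had peaks of 1185 and 1162 bp. Its nearest peak in those 25 libraries, an activated one, was 9579 bp away. The ranking asked for wide peaks in both quiescent libraries, and the rule for no overlapping peak in the others, so neither is a finding. Apart from the region on chromosome 17, those named so far had their nearest peak of those 25 libraries 3739 to 9579 bp away.

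Of the remaining regions among the 10, the one on chromosome 10 from 19725379 to 19726495 lay in the window described above, with peaks of 1080 and 1062 bp. A Dox day 8 replicate 2 peak was 156 bp away from it, and the nearest activated peak was 70803 bp away. The region on chromosome 17 from 32519623 to 32520887 had peaks of 1265 and 1134 bp, and that on chromosome 11 from 104098652 to 104099738 had peaks of 1087 and 980 bp. On chromosome 1, the region from 66244534 to 66245647 had peaks of 1114 and 1038 bp, and the region from 164518812 to 164519862 had peaks of 1002 and 1030 bp. The region on chromosome 16 from 45366222 to 45367356 had peaks of 1013 and 1123 bp. In these 5 regions the nearest peak of any other library was 1040 to 5823 bp away.

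Quiescent-private regions lay about as close to other regions as regions in general did. The next region of any kind was 2154 bp away in the median for quiescent-private regions and 2398 bp for all regions, within 500 bp for 14% and 11%, and within 10 kb for 91.9% and 90.7%. Counted to peaks outside the quiescent cells, the nearest peak of any of the other 25 libraries was 2348 bp away in the median, with quartiles of 1025 and 5075 bp. For 1654 regions (88.9%) it was within 10 kb, for 263 (14.1%) within 500 bp and for 76 within 100 bp, and 14 regions had none within 50 kb. Within a single library such neighbours were rarer. Activated cells had a peak within 10 kb of 40.2% of the regions in replicate 1 and of 46.6% in replicate 2, and the quiescent cells themselves had another peak, outside the quiescent-private regions, within 10 kb of 59.9% and 44.1%.

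The share of quiescent-private regions with a peak within 10 kb was then compared between conditions, a measure that the rule had not used. Day 8 GFP cells had such a peak at 40.9% and 39.3% of the regions and day 10 GFP cells at 51.6% and 54.2%. Day 0 fibroblasts had one at 50.7% and 48.5%. Unlabelled Dox+FRG cells of day 2 had one at 45.2% and 35.1%, those of day 4 at 51.5% and 40.2%, those of day 6 at 48.7% and 48.9%, and those of day 8 at 51.4% and 42.4%. The GFP-labelled and unlabelled libraries overlapped over most of their range. Dox cells had one at 57.4% and 61.2% on day 4 and at 65.2% and 71.8% on day 8, FRG day 8 cells at 71.4% and 70.8%, MEF10 MN+FRG cells at 59.1% and 58.4%, and MEF10 MyoD+FRG replicate 1 at 30.4%. These shares tended to be larger in longer lists, so each was divided by the share of activated-private regions with a peak of the same library within 10 kb, and the log2 of this ratio was tested.

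By this ratio, a larger share of quiescent-private than of activated-private regions had a peak within 10 kb in most libraries. The 2 classes also differed in their surroundings over all libraries. The next region of any kind was within 10 kb for 91.9% of quiescent-private and 82.3% of activated-private regions. The part of this in the ratio was not tested. Neither tested pair of conditions differed beyond the spread between libraries. The log2 ratio was highest in FRG day 8 cells, at 0.27 and 0.23. It was lowest in Dox+FRG day 2 replicate 2 (-0.053), then in MEF10 MyoD+FRG replicate 1 (-0.0064) and Dox+FRG day 2 replicate 1 (0.012). It averaged 0.13 ± 0.048 in the 4 GFP-labelled libraries and 0.10 ± 0.081 in the 8 unlabelled Dox+FRG libraries (SD), a difference of 0.030 that did not pass the test (two-sided exact permutation p = 0.547 over 495 splits, adjusted p = 0.547 over 2 tests, with 0.00202 the smallest p possible). The GFP-labelled libraries lay between 0.096 and 0.20 and the unlabelled ones between -0.053 and 0.17, with 1 GFP-labelled library above all unlabelled ones. The GFP-labelled libraries were of days 8 and 10 and the unlabelled ones of days 2 to 8, so label and day cannot be told apart in this difference, which was -0.052 at day 8 alone (2 libraries each). Dox+FRG cells of days 4 and 8 averaged 0.13 ± 0.034 and Dox cells of the same days 0.15 ± 0.034 (SD, n = 4 each), a difference of -0.022 that did not pass either (two-sided exact permutation p = 0.429 over 70 splits, adjusted p = 0.547, with 0.0286 the smallest p possible).

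These comparisons depended on the distance. Each adjusted p below covers the 2 tests at its own distance and not the choice among distances. Within 5 kb the log2 ratio was higher in GFP-labelled than in unlabelled Dox+FRG libraries, at 0.11 ± 0.092 and -0.028 ± 0.098 (SD, n = 4 and 8), a difference of 0.14 (exact permutation p = 0.0263, adjusted p = 0.0286), and 3 of the 4 GFP-labelled libraries were above all unlabelled ones. Label and day cannot be told apart here either: the highest value was in day 10 GFP replicate 2 (0.24) and the lowest in day 2 replicate 2 (-0.23). At day 8 alone the 5 kb ratio was 0.032 and 0.070 in GFP-labelled cells, against 0.037 and -0.080 in unlabelled cells, and the groups overlapped. Within 5 kb Dox+FRG cells were lower than Dox cells, at -0.020 ± 0.072 and 0.19 ± 0.046 (SD, n = 4 each), a difference of -0.21 (exact permutation p = 0.0286, adjusted p = 0.0286), with all 4 Dox+FRG libraries below all Dox libraries. Within 50 kb both differences had the other sign, at -0.021 (exact permutation p = 0.0626) and 0.044 (exact permutation p = 0.0286, adjusted p = 0.0571). The tests treat the libraries of a group and of different days as separate units, and the Dox lists were longer and their peaks narrower (78 to 88 bp against 172 to 180 bp in the Dox+FRG cells of the same days); the part of these in the differences was not tested.

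**Figure D4:**
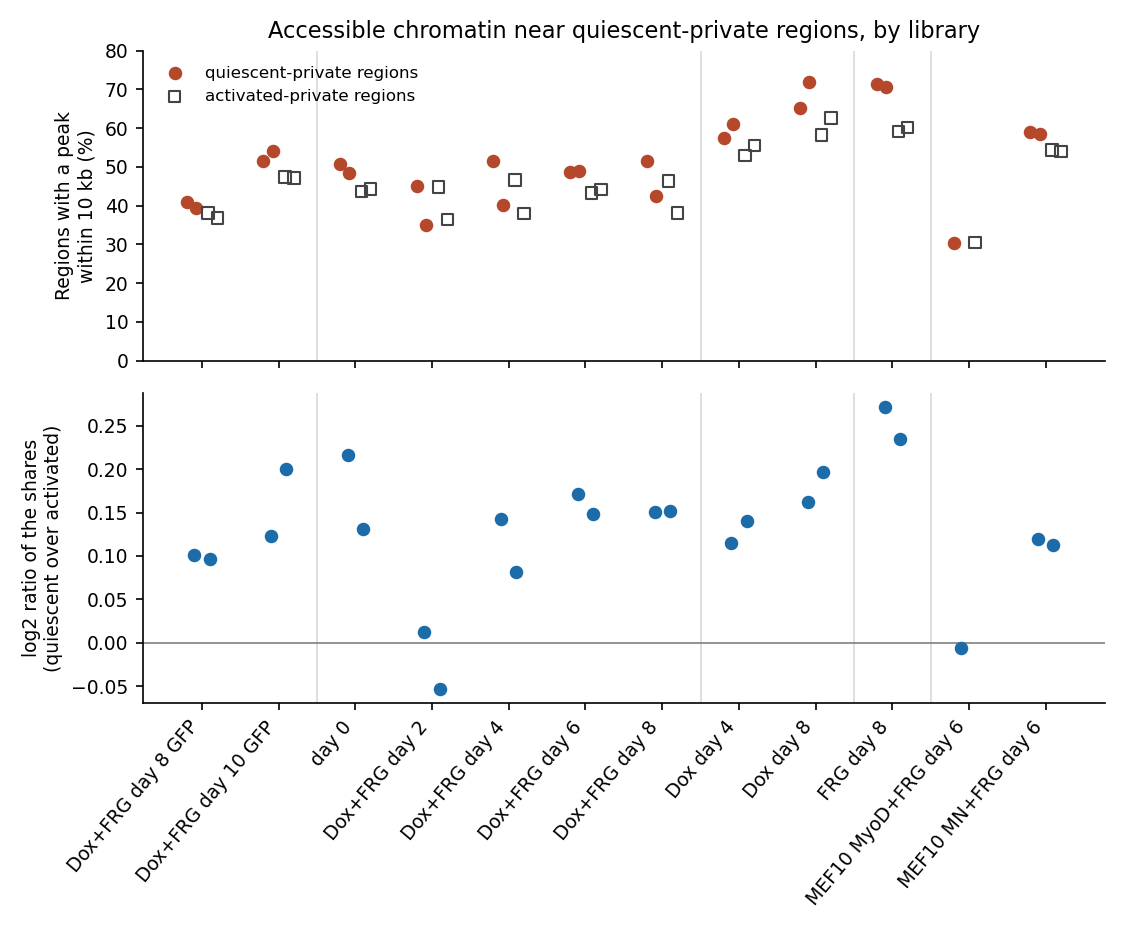
Upper panel, share of the 1861 quiescent-private regions (filled circles) and of the 587 activated-private regions (open squares) that had a peak of the library within 10 kb. Lower panel, log2 ratio of these shares, 1 point for each of 23 fibroblast-derived libraries. Ratios run from -0.053 in Dox+FRG day 2 replicate 2 to 0.27 in FRG day 8 replicate 1, and GFP-labelled and unlabelled Dox+FRG libraries overlap.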

How the data were processed

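Each ATAC-seq reaction took 60000 cells, with 13 cycles of PCR and a selection for fragments between 100 and 1000 bp, per the labels' protocols. BWA, HOMER and the mm9 build are named in the submitters' processing notes. The peak threshold, read filters, tool versions and any correction of read positions for the transposase are details not given in the sources used here, and such choices could change which weak peaks the authors listed. Each deposited list gives positions of the peaks of 1 library, with no score, so peaks appear to have been called per library. Listed starts were treated as 0-based, and printed starts are 1-based.

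Peaks were merged and counted in Python 3.11.15 with numpy 2.4.6, and intervals computed with scipy 1.17.1. The merging and distances were tested on simulated lists with 200 planted regions. Tests across libraries were two-sided exact permutation tests of the difference in means. Benjamini-Hochberg adjustment was over the 2 tests at each distance and did not cover the choice among distances. Regions named in the text are the 10 with the largest smaller-of-both width in the quiescent lists, the 5 windows of 100 kb with most quiescent-private regions, and the 5 longest runs. The regions, classes and tests were chosen with earlier results of these data known. Gene lists and marker genes that had been set for an mm9 annotation were not used. Alternatives were peaks set to 200 bp, merging across gaps of 500 bp, autosomes alone, all 28 lists, extended peaks only, other distances, a replicate block and each library left out.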

Additional observations from a re-analysis of the deposited data

Results flagged for a closer look

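The log2 ratio of neighbourhood shares within 10 kb in Dox+FRG day 4 replicate 2 was 0.081, far below the other 3 Dox+FRG libraries of days 4 and 8, which lay between 0.14 and 0.15. Its distance to the nearest of these was 0.870 of the whole range, above Dixon's 95% limit of 0.829 for 4 values. Of 8 sets of values looked at in this way, 1 was picked out, and chance alone picks out about 1 set in 20. Without this library the difference between Dox+FRG and Dox cells was -0.0052 (exact permutation p = 0.800).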

How the results depend on the processing

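The number of quiescent-private regions was 2176 with every peak set to 200 bp, 1677 with peaks up to 500 bp apart merged, 1806 on autosomes and 1802 with all 28 lists, and 1744, 1597 and 1802 of the 1861 regions were kept in the first, second and last of these. Only 32 had extended peaks in both quiescent libraries. Leaving out 1 library gave 1861 to 5309 regions, the highest without quiescent replicate 2, when replicate 1 alone stands for the group. Without both FRG libraries there were 2447, without all MEF10 libraries 1918, and without the Dox, FRG and MN+FRG libraries 3146, by construction since fewer libraries must lack a peak (these 3 were chosen after seeing the data).

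The GFP-labelled minus unlabelled difference in log2 ratio was 0.14 at 5 kb and -0.021 at 50 kb, and -0.052 at day 8 alone, where 2 libraries against 2 allow no p below 0.333. At 5 kb and day 8 alone, added after seeing the data, it was 0.072. For Dox+FRG minus Dox it was -0.21 at 5 kb and 0.044 at 50 kb, and the share of quiescent-private regions alone differed by -17.5 percentage points (exact permutation p = 0.0286), with longer Dox lists. The cause of these changes with distance was not tested. Leaving out 1 library gave 0.0063 to 0.041 and -0.035 to -0.0052, and no p passed. With the replicate block the differences of 0.030 and -0.022 had exact permutation p = 0.569 and 0.50, and permuting within day gave p = 0.278 for the second. Replicate numbers were not shown to pair libraries, as deviations of same-numbered libraries correlated at -0.011 to 0.107 over 55 pairs of groups. Depth is unknown, so regions listed without a peak may be weakly open.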
